A study of Mus musculus with 3 samples.

Results

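The genes described here encode heat shock proteins and chaperonins: the Hsp90, Hsp70, Hsp110 and small heat shock families, the J-domain proteins that serve Hsp70, the mitochondrial and cytosolic chaperonins, and the heat shock factors Hsf1 and Hsf2. They were chosen by a rule on gene symbols that used no measured values, and 86 of the 44788 rows of the count table matched. Earlier results of these data were known when genes and gene lists were chosen. RNA was sequenced from T lymphocytes of the spleens of female BALB/c mice aged 6 to 8 weeks, isolated with magnetic beads that bind CD90.2 (Thy1, found on mouse T cells), and kept in RPMI medium containing 2% fetal bovine serum. All 3 libraries came from cells treated for 10 h with LZ-8, a protein from Ganoderma lucidum, a fungus, that acts on immune cells, and form 1 group with replicates 1, 2 and 3. No untreated group was analysed here, so every value is a level in treated cells and none is an effect of LZ-8. Whether the replicates were separate animals or cultures is not stated in the labels. SDs therefore measure how far these 3 samples lie apart, and that distance may be technical. P-values between libraries set it against counting error alone, and p-values of ratios ask only whether a ratio keeps its direction over the 3 samples.

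Chaperones bind unfolded or partly folded proteins and help them reach a stable shape. Hsp70 proteins bind short exposed stretches in cycles of ATP use that J-domain proteins start and nucleotide exchange factors, among them the Hsp110 proteins, end. Hsp90 acts later, on kinases, steroid receptors and other nearly folded clients, and the barrel-shaped chaperonins enclose whole chains, in mitochondria as Hspd1 with its lid Hspe1 and in the cytosol as a ring of subunits encoded by Tcp1 and the Cct genes that folds actin and tubulin. Many of these genes are transcribed at all times, and some are induced by the heat shock factors or, for chaperones of the endoplasmic reticulum, by the unfolded protein response.

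The libraries held 13239482, 15007652 and 15683820 counts, and levels are given as CPM, counts scaled to a library size of 1000000, after adjusting library sizes by the trimmed mean of M-values. At this depth 3 counts, the limit that a count of 0 allows, correspond to 0.186 to 0.236 CPM, a limit for counting error only. A row for 18S ribosomal RNA held 5.83% of the counts in replicate 1, 2.37% in replicate 2 and 0.992% in replicate 3. All 10 T cell markers examined were above 100 CPM, and their sum was 3788, 3626 and 3713 CPM. The summed markers of other cells were between 12.5 and 14.4 CPM for B cells, 13.2 and 16.7 CPM for macrophages and monocytes, 0.124 and 1.02 CPM for neutrophils, 10.4 and 12.5 CPM for dendritic cells, 10.4 and 14.2 CPM for NK cells, and 1.61 and 2.91 CPM for erythroid cells. Csf1r, Siglech and Ncr1, defining markers of macrophages, plasmacytoid dendritic cells and NK cells, had 0 counts in every library. Other markers in the same lists were present. The highest in each list were Mpeg1 (macrophage and monocyte) at a mean of 9.20 CPM, Zbtb46 (dendritic cell) at 9.90 and Eomes (NK cell) at 9.06. Of the 4 stromal markers, with a sum between 50.4 and 61.8 CPM, only Pecam1, which T cells can also carry, exceeded 10 CPM.

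Several of the most abundant chaperone genes have processed pseudogenes, intronless copies of an mRNA elsewhere in the genome, that are rows of the same table. The cDNA stretches printed here show why a read is hard to assign between such rows. Hspa8 encodes the constitutive cytosolic Hsp70, and its gene lies at chr9:40800984-40810087 on the plus strand (GRCm38.p6, GENCODE release M21). The copies shown are Gm15459 at chr5:5781615-5783555, Gm8355 at chr10:14745362-14747302 and Gm6210 at chr6:75296118-75298059. The stretch is exonic and coding in Hspa8, begins 429 bases into its principal transcript and is 110 bases long, and capitals mark bases of a copy that differ from Hspa8.
Hspa8: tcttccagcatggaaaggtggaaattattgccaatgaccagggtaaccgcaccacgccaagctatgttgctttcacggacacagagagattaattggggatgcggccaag
Gm15459: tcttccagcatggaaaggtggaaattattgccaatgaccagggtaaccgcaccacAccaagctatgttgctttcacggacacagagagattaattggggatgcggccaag
Gm8355: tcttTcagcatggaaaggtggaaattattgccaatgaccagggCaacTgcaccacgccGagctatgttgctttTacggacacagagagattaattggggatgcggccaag
Gm6210: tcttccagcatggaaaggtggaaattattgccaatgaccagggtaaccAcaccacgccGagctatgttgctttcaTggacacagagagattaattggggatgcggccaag
Gm15459 differed from Hspa8 at 1 base of this stretch, Gm6210 at 3 and Gm8355 at 5. Over the whole coding sequence of 1941 bases Gm15459 differed at 5 positions, and the longest run without a difference was 672 bases.

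Hsp90aa1, the inducible cytosolic Hsp90, has a similar copy, Gm12346, which GENCODE annotates as a transcribed processed pseudogene. Hsp90aa1 lies at chr12:110690605-110702728 on the minus strand and Gm12346 at chr11:77293444-77295898. Dnaja1, a class A J-domain partner of cytosolic Hsp70, lies at chr4:40722150-40737149 on the plus strand, and its copy Gm15542 at chr7:140890887-140892080. Coding stretches of each pair are shown with the bases that differ between gene and copy in capitals.
Hsp90aa1: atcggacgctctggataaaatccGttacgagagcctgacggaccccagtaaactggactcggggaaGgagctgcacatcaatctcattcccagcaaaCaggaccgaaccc
Gm12346: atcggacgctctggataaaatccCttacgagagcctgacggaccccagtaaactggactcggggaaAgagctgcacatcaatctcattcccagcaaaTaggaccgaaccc
Dnaja1: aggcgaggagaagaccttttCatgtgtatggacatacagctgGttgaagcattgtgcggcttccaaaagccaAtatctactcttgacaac
Gm15542: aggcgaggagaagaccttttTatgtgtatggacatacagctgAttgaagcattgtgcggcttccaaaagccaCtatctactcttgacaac
Each pair differed at 3 bases of its stretch. Over the full alignments Gm12346 was 99.5% identical to Hsp90aa1 over 2255 bases, and Gm15542 was 99.4% identical to Dnaja1 over 1194 bases.

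Of the 86 genes, 56 averaged 10 CPM or more, which is 65.1% against 20.5% of all rows of the table. A mean of 100 CPM or more was reached by 29, or 33.7% against 5.67%. In every library 65 genes were at 1 CPM or above, beside 12941 of all 44788 rows. Below 1 CPM in every library were 18 genes, or 20.9% against 68.4%. Hspb3, Hspb8, Cct8l1, Dnajb7, Dnajb8, Dnajc5b and Dnajc5g had 0 counts in all 3 libraries, as did 21657 of all rows. Many rows of the table were thus empty, so all rows are not a like background for a family of named genes. All 3 Hsp90, all 4 Hsp110 and all 4 class A J-domain genes reached a mean of 10 CPM, as did 8 of the 10 ring chaperonin rows, 20 of the 28 class C and 7 of the 13 class B J-domain genes and 5 of the 11 Hsp70 genes. None of the 8 small heat shock genes did.

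The chaperone genes together made up 1.91%, 2.00% and 1.99% of all counts in replicates 1, 2 and 3, or 19666 ± 251 CPM (mean ± SD here and below, n = 3). The Hsp90 group held 39.8% of that sum, the ring chaperonin 19.7%, Hsp70 15.9%, the class C J-domain genes 8.23% and Hsp110 7.50%. One gene, Hsp90ab1, accounted for 33.5%. With the pseudogene rows added to their genes, Hsp70 was at 6441 CPM in place of 3128 and stood above the ring chaperonin, at 3874 CPM. The summed ring chaperonin, at 3867 ± 35.6 CPM, and the summed Hsp70 genes, at 3128 ± 25.3 CPM, varied little between libraries. Hsp110 was at 1348, 1498 and 1574 CPM, lowest in replicate 1, and the Hsp90 group was at 8155, 7887 and 7433 CPM, lowest in replicate 3.

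**Figure D1:**
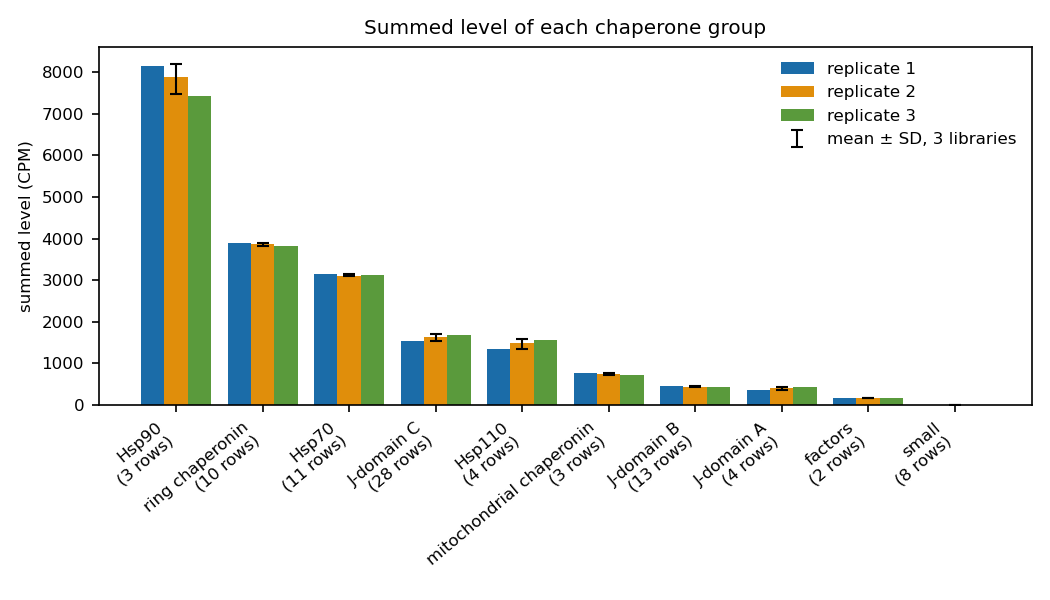
Summed level of each chaperone group in CPM, with 1 bar per library and the mean ± SD of the 3 libraries as an error bar. The Hsp90 group is at 8155, 7887 and 7433 CPM, and the small heat shock group, at 3.53 ± 1.03 CPM, is not visible on this scale.

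Hsp90ab1, the constitutive cytosolic Hsp90, was at 7110, 6643 and 6048 CPM in replicates 1, 2 and 3. Among all rows it ranked 3 by CPM, and among the 32264 rows with an annotated length it ranked 7 per kilobase of exon. Hsp90aa1 was at 592, 730 and 806 CPM, with its highest level in the library where Hsp90ab1 was lowest. Hsp90b1, the Hsp90 of the endoplasmic reticulum, was at 453, 514 and 579 CPM, also highest in replicate 3 and lowest in replicate 1. Per kilobase of exon, the log2 ratio of Hsp90ab1 to Hsp90aa1 was 3.98, 3.58 and 3.30, with a mean of 3.62 ± 0.34, a 12.3-fold difference in level. Hsp90ab1 was higher in 3 of 3 libraries, and the two-sided exact sign-flip test gave p = 0.25, the smallest that 3 libraries allow, here and for each of the 10 ratios taken. With the 3 pseudogene rows of Hsp90aa1 added to it, the ratio was 5.87-fold.

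Among the Hsp70 genes, Hspa8 was at 1122, 1068 and 1016 CPM. Hspa5, the Hsp70 of the endoplasmic reticulum known as BiP, was at 1061, 995 and 910 CPM, and Hspa9, the mitochondrial Hsp70, was at 814, 881 and 1023 CPM. Hspa8 and Hspa5 were highest in replicate 1 and lowest in replicate 3, and Hspa9 was the reverse. Per kilobase of exon, Hspa8 was at 248 ± 12.3, Hspa5 at 234 ± 17.9 and Hspa9 at 210 ± 24.8 CPM, and the levels of neighbours in that order overlapped between libraries. Within each library Hspa8 was slightly above Hspa5, with log2 ratios per kilobase of 0.06, 0.08 and 0.13, whereas Hspa9 was above Hspa5 in replicate 3 alone. Per kilobase of the principal transcript the levels were 446 ± 22.1 CPM for Hspa8, 297 ± 35.1 for Hspa9 and 269 ± 20.6 for Hspa5, so Hspa8 was 1.66-fold above Hspa5, and the means of Hspa9 and Hspa5 changed places, with Hspa9 higher in replicates 2 and 3. The ribosome-associated Hspa14 was at 115 ± 6.28 CPM and Hspa13, an Hsp70 of microsomes, at 28.3 ± 3.45 CPM.

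The stress-inducible Hsp70 genes were low. Hspa1b was at 10.2, 10.4 and 8.05 CPM and Hspa1a at 8.01, 6.66 and 5.82 CPM, and their sum was 16.4 ± 2.24 CPM. Hspa2, best known from the testis, was at 3.91 ± 0.97 CPM. Hspa1l had 13, 9 and 4 counts, Hspa12a had 2, 1 and 2, and Hspa12b had 2, 0 and 0. Hspa1a and Hspa1b are neighbours on chromosome 17 with closely similar sequence, so the division of counts between them is uncertain. The 250 bases before the start of each are shown, from the RefSeq annotation of GRCm38.p6, at chr17:34972157-34972406 for Hspa1a and chr17:34959239-34959488 for Hspa1b, both on the minus strand and outside the annotated exons of both genes, with the bases that differ in capitals.
Hspa1a: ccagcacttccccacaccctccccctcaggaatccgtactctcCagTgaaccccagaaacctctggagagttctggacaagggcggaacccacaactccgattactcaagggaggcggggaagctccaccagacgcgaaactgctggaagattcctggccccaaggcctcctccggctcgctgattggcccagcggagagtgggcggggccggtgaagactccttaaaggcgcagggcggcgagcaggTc
Hspa1b: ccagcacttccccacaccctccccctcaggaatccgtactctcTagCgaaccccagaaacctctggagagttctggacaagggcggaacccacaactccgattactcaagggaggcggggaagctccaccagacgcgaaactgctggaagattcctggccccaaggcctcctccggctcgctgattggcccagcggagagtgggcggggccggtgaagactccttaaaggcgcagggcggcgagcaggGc
These stretches differed at 3 of 250 bases. Per kilobase of exon the log2 ratio of Hspa1a to Hspa1b was -0.43, -0.72 and -0.55, so Hspa1b was the higher row in 3 of 3 libraries.

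The Hsp110 genes encode relatives of Hsp70 that release its nucleotide. Hyou1, the member of the endoplasmic reticulum, was at 534, 566 and 558 CPM, and the cytosolic Hspa4 was at 401, 461 and 528 CPM. Hsph1, a heat-inducible cytosolic member, was at 356, 411 and 431 CPM, and Hspa4l was at 58.4 ± 1.86 CPM. Hspa4 and Hsph1 were both highest in replicate 3 and lowest in replicate 1. Their order per kilobase depended on the length used: Hspa4 was 1.52-fold above Hsph1 per kilobase of all exons joined and 0.953-fold of it per kilobase of the principal transcript.

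Hsf1, the main activator of heat shock genes, was at 150, 144 and 146 CPM, and Hsf2, a related factor of development and stress, was at 13.0, 17.8 and 20.1 CPM. Per kilobase of exon Hsf1 was 11.9-fold above Hsf2, a log2 ratio of 3.57 ± 0.35. The 3 libraries differed little in Hsf1, whose coefficient of variation was 2.34%, and more in Hsf2, where it was 21.1%.

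The mitochondrial chaperonin gene Hspd1 was at 490, 484 and 473 CPM and its lid Hspe1 at 79.5, 83.2 and 80.2 CPM. The 2 genes lie head to head on chromosome 1. Per kilobase of exon Hspd1 was 3.32-fold above Hspe1.

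The cytosolic ring is built from 8 different subunits, each with its own gene. Cct7 was at 591 ± 26.1 CPM, Cct2 at 579 ± 36.6, Cct5 at 537 ± 56.3, Cct3 at 520 ± 20.4, Tcp1 at 483 ± 35.9, Cct4 at 435 ± 28.4, Cct6a at 390 ± 16.3 and Cct8 at 332 ± 14.9 CPM. The subunits thus spanned 1.82 ± 0.16-fold in CPM, from Cct8 to Cct7 or Cct2. Per kilobase the order changed with the length chosen. With the length of all exons joined, Cct2 was highest and Cct3 lowest in all 3 libraries, with a span of 2.77 ± 0.09-fold. With the length of the principal transcript, Cct8 was lowest in all 3 libraries, Cct5 was highest in replicates 1 and 2 and Cct2 in replicate 3, and the span was 2.14 ± 0.13-fold. Cct2 and Cct5 were then at 296 ± 18.7 and 290 ± 30.4 CPM per kilobase and did not differ beyond their spread. Cct6b, a relative of Cct6a known from the testis, had 0, 1 and 4 counts.

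**Figure D2:**
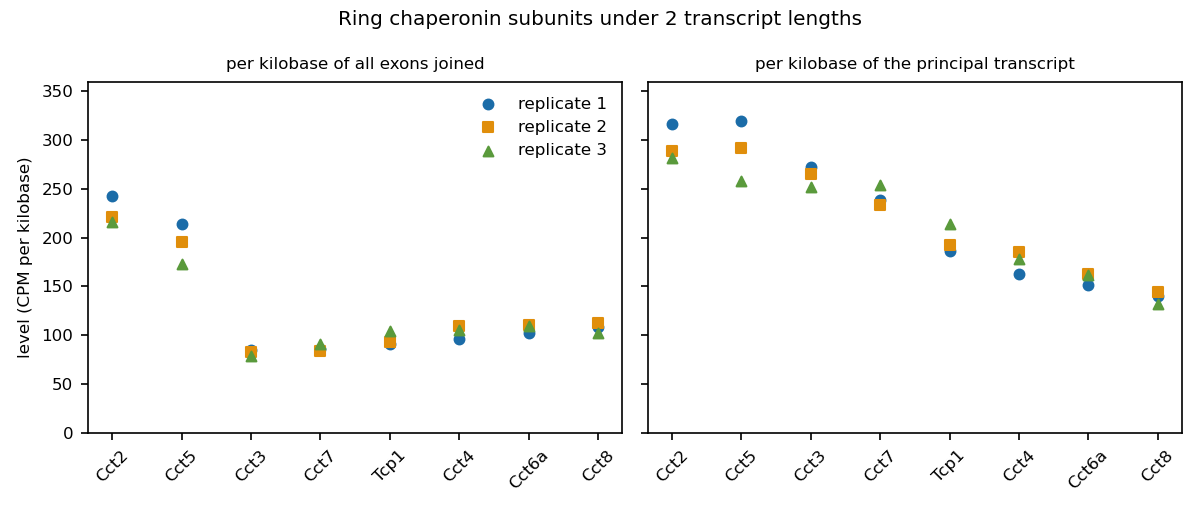
Level of the 8 ring chaperonin subunits in CPM per kilobase, with 1 point per library, divided by the length of all exons joined (left) or of the principal transcript (right, the longest transcript for Cct6a, which has no principal tag). Cct3 is the lowest subunit on the left, and Cct8 is the lowest on the right.

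Among class A J-domain genes, Dnaja2 was at 206 ± 8.59 CPM, the mitochondrial Dnaja3 at 92.0 ± 8.73 CPM and Dnaja4 at 21.6 ± 1.26 CPM. Dnaja1 was at 68.3, 81.6 and 93.2 CPM, highest in replicate 3 and lowest in replicate 1. The leading class B gene was Dnajb11, which works with Hspa5 in the endoplasmic reticulum, at 155 ± 8.28 CPM. It was followed by the heat-inducible cytosolic Dnajb1, at 90.3, 83.6 and 69.2 CPM, then by Dnajb12 of the endoplasmic reticulum membrane at 63.0 ± 4.38 CPM and Dnajb6, which holds back protein aggregation, at 49.2 ± 3.27 CPM. Both Dnaja1 and Dnajb1 had a mean of 81.0 CPM, with more Dnajb1 in replicate 1 and more Dnaja1 in replicate 3. Per kilobase of exon Dnaja1 was 0.371-fold of Dnajb1, a log2 ratio of -1.43 ± 0.42, and with its pseudogene rows added Dnaja1 was at 214 CPM.

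The class C genes, whose J domain sits in proteins of many other kinds, were led by Dnajc5, a vesicle protein, at 213, 215 and 214 CPM. Its coefficient of variation, 0.416%, was the lowest of the 56 genes averaging 10 CPM or more. The endosomal Dnajc13 followed at 194 ± 17.0 CPM, the ribosome-associated Dnajc2 at 142, 177 and 204 CPM and Dnajc7, a partner of Hsp70 and Hsp90, at 173 ± 17.3 CPM. The small heat shock genes were led by Hspb11, which despite its name encodes a protein of cilia, at 3.61, 2.11 and 1.36 CPM. Hspb6 had 10, 9 and 14 counts, and Hspb7 had 1, 3 and 6.

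**Figure D3:**
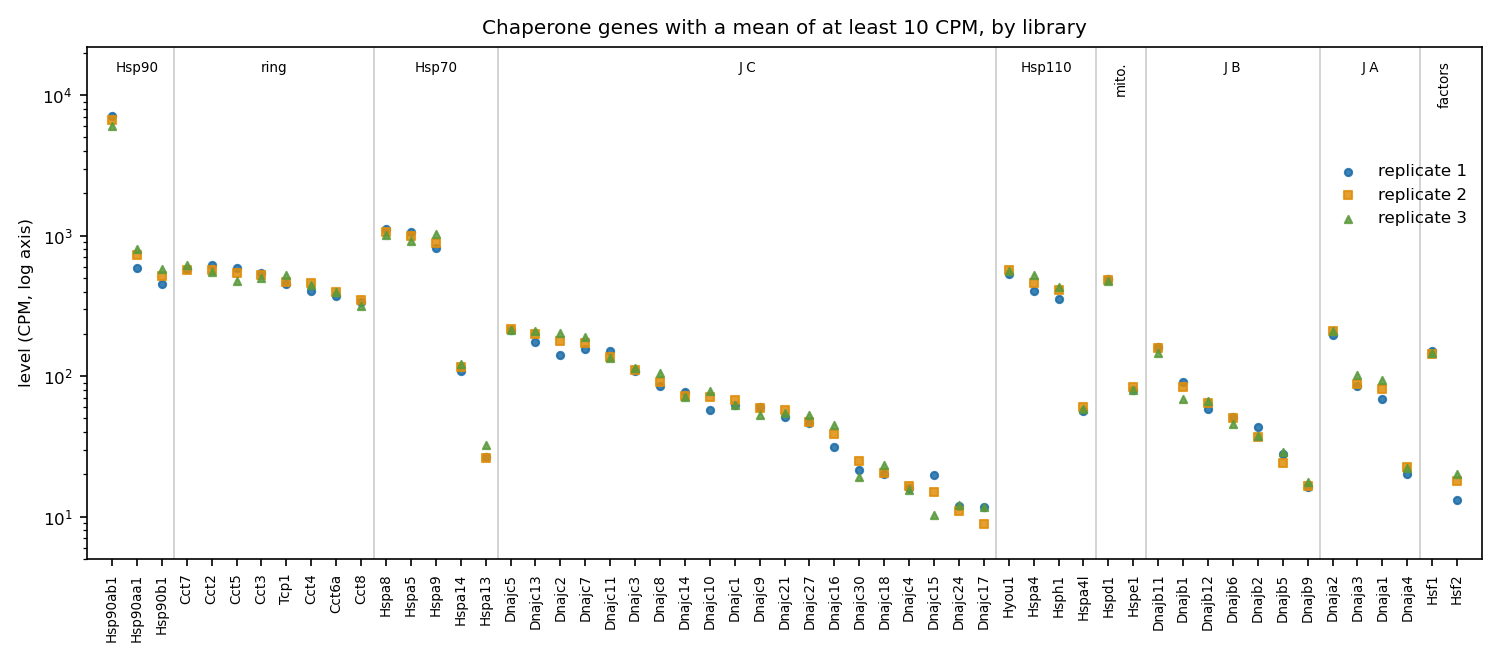
Level in CPM on a log axis of 55 of the 56 chaperone genes averaging 10 CPM or more, with 1 point per library, grouped by role (mito., mitochondrial chaperonin; J A, J B and J C, J-domain classes). Hsp90ab1 stands above all others at 6048 to 7110 CPM, and the points of 1 gene lie close together beside the range across genes.

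Counts in the rows of the pseudogene copies were in part larger than in the genes themselves. An alignment of at least 200 bases at 95% identity or more to a processed pseudogene was found for 10 of the 85 genes with an annotated transcript. The 5 copies of Hspa8 had 3313 ± 69.2 CPM in sum, against 1069 ± 53.0 CPM in the Hspa8 row, so they held 75.6% of the total. Gm15459 alone was at 2269, 2268 and 2220 CPM, above Hspa8 in every library, and Gm8355 was at 570, 649 and 792 CPM. Hspa8 and its copies together came to 4356, 4407 and 4381 CPM, with a coefficient of variation of 0.584% against 4.96% for the Hspa8 row. By the chi-square test between libraries described further on, the Hspa8 row passed (adjusted p = 6.07e-16) and the sum did not (adjusted p = 0.213). The reverse held for Hspd1, where the row did not pass (adjusted p = 0.172) and the sum did (adjusted p = 3.01e-09), and for Dnajb6 (adjusted p = 0.0775 for the row and 0.0342 for the sum).

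The 3 copies of Hsp90aa1 held 771 ± 104 CPM, of which Gm12346 had 468, 586 and 655 CPM, and the Hsp90aa1 row 710 ± 109 CPM. Both were highest in replicate 3 and lowest in replicate 1, and the sum, at 1249, 1524 and 1668 CPM, kept a coefficient of variation of 14.4%. For Hspd1, the copy Gm12141 was at 278, 316 and 365 CPM, and the sum was highest in replicate 3 although the Hspd1 row was highest in replicate 1. The 3 copies of Dnaja1 held 133 ± 3.65 CPM, or 62.1% of the sum, the 5 copies of Dnajb6 held 53.4 ± 2.17 CPM, or 52.1%, and Dnajc19-ps was at 9.88 ± 2.13 CPM beside 4.42 ± 1.41 CPM for Dnajc19, which belongs to the mitochondrial import motor. For Cct7 the copy held 1.12% of the sum. Exons of 32 of the 85 genes also overlap those of another annotated gene, mostly on the opposite strand, and whether the counting used strand is not given. The overlap with 1 other gene was largest for Hspa1l, at 71.9% of its exon bases, followed by Dnaja4 at 44.1% (with Wdr61), Dnajb8 at 37.2%, Hspb2 at 30.2% (with Cryab), Dnajc30 at 26.2%, Hspa1a at 19.0%, Dnajc14 at 17.0% (with Ormdl2) and Cct6a at 12.5% (with Psph), so these levels are uncertain too.

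The share of a transcript that is repeated without any difference in a copy sets how many short reads could not be told apart. Of all stretches of 100 bases in the principal transcript, 62.8% of those in Hspa8 occurred unchanged in at least 1 copy, 47.5% in Hsp90aa1, 34.9% in Dnajb6, 25.8% in Hspd1, 17.0% in Dnajc19 and 14.8% in Dnaja1. Neither the read length nor the rule for counting reads with several matches is given in the sources used here, so how many of the counts in copy rows came from the parent genes was not tested. Levels of genes with copies, among them Hspa8, Hsp90aa1, Hspd1, Dnaja1, Dnajb6 and Dnajc19, are therefore uncertain. The counts in the copies do not bound that uncertainty, because the rule for reads with several matches is not known. With copies added, Hspa8 was 4.37-fold above Hspa5 per kilobase of exon in place of 1.06-fold, and Hspa9 was 0.690-fold of Hspd1 in place of 1.15-fold above it.

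**Figure D4:**
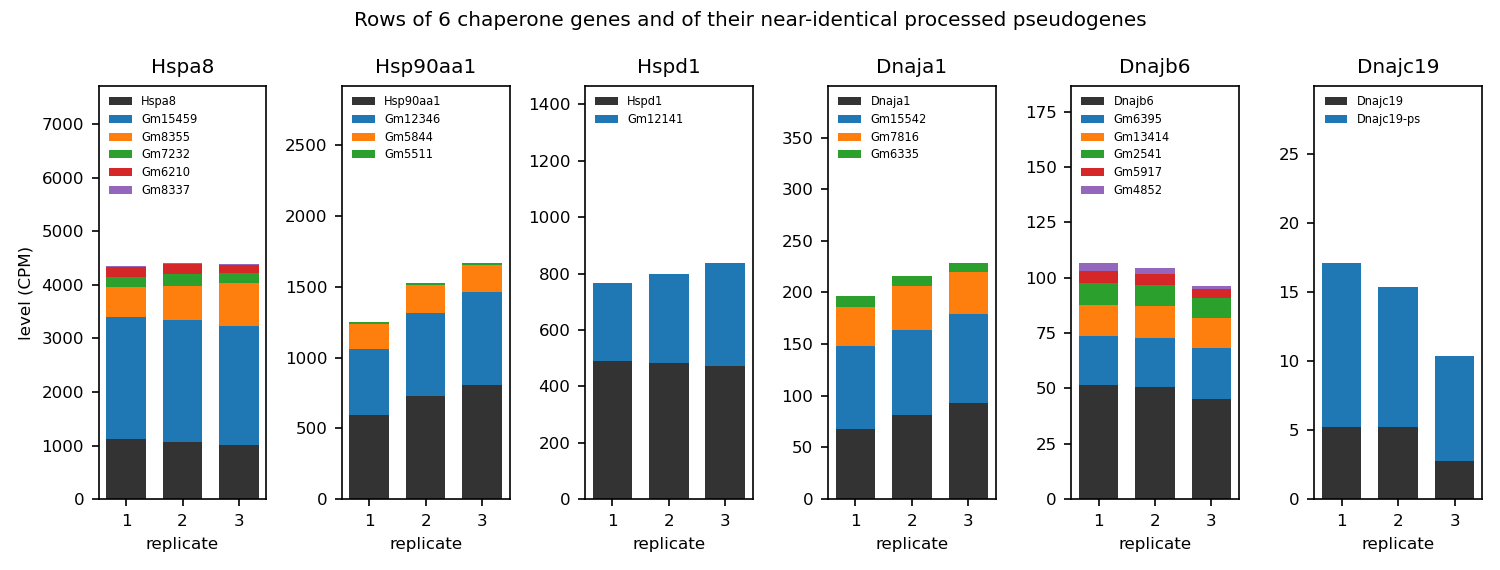
Level in CPM of the rows of 6 chaperone genes (dark) and of their near-identical processed pseudogenes (colours, stacked) in replicates 1, 2 and 3, each panel with its own axis from 0. For Hspa8, Gm15459 is the largest part of each bar, and the 3 bars, at 4356, 4407 and 4381 CPM, are of nearly equal height.

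Promoters were available from RefSeq for 68 of the 86 genes, as the 250 bases before and 50 bases after each start. The heat shock element, to which Hsf1 binds, was searched as 3 units of GAA and TTC in turn with 2 free bases between neighbours, which reads alike on both strands. It occurred in promoters of Hspd1, Hspe1, Hsph1 and Dnajb6, 4 of the 68 genes or 5.88%, and in promoters of 0.662% of all 27025 genes. Hspa1a, Hspa1b and Dnajb1 were among the 68 and had no match. Only exact units were searched, so a promoter without a match may hold units that depart from this pattern. The endoplasmic reticulum stress element, CCAAT and CCACG with 9 free bases between them on either strand, occurred in those of Hspa5, Hsp90b1 and Dnajc3, 4.41% of the 68 genes, and in those of 0.137% of all genes. Of all 32851 promoters, 0.603% held the former and 0.119% the latter. The latter contains a CCAAT box, which alone was found on either strand in 31 of the 68 genes, or 45.6%, and in 41.1% of all genes. Stretches of 30 bases around the matches are shown, with the match in capitals: Hspe1 at chr1:55088053-55088082 on the plus strand, Hspa5 at chr2:34772020-34772049 on the plus strand, Hsp90b1 at chr10:86705632-86705661 on the minus strand and Dnajc3 at chr14:118937822-118937851 on the plus strand.
Hspe1: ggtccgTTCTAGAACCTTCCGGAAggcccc
Hspa5: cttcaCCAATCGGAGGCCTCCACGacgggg
Hsp90b1: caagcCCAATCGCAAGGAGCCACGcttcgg
Dnajc3: cacaaCCAATCAGCGCCAACCACGacccgg
In Hspe1, 4 units follow each other over 18 bases that end 71 bases before the RefSeq start, and the same bases read on the other strand are the match of Hspd1. The match ended 46 bases before the start in Hspa5, 193 in Hsp90b1, which has another nearer to its start, and 86 in Dnajc3. Hspa5 and Hsp90b1 were at 989 ± 75.6 and 515 ± 62.6 CPM, and Dnajc3, a J-domain protein of the endoplasmic reticulum, at 111 ± 2.86 CPM. Hspa5 was highest in replicate 1 and Hsp90b1 in replicate 3, and Dnajc3 did not pass the test between libraries (adjusted p = 0.458). A match describes these letters only and shows no binding.

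Differences between the libraries were tested by chi-square on the raw counts against the scaled library sizes, with Benjamini-Hochberg adjustment over 15392 genes and a threshold of 0.05. The test compares 3 libraries and not conditions, and it allows for counting error only. Of the 69 chaperone genes with enough counts, 42 passed, which is 60.9% against 42.8% of all genes tested. The share called grows with the counts, and among genes averaging 10 CPM or more it was 67.9% of the 56 chaperone genes and 58.5% of all. Without replicate 1 the count was 27 of 69, beside 24.4% of all genes tested. Without replicate 3 it was 25, beside 22.8%, and without replicate 2 it was 42, beside 41.6%. With a difference of at least 1.5-fold also required, 6 chaperone genes passed, Hsf2, Hspb11, Dnajb14, Dnajc6, Dnajc15 and Dnajc19, beside 13.8% of all genes. The median coefficient of variation was 7.05% over these 56 genes and 8.67% over all genes averaging 10 CPM or more. Of the 42 genes, 21 were highest in replicate 3, 15 in replicate 1 and 6 in replicate 2. Beside these 21 of 42, replicate 3 was highest in 44.7% of all genes that passed, which are 19.1% of all genes tested, so the chaperone genes lay close to the background.

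The 5 largest coefficients of variation among chaperone genes of at least 10 CPM that passed were those of Dnajc15, Hsf2, Dnajc16, Dnajc2 and Dnaja1. Dnajc15, of the mitochondrial inner membrane, was at 19.6, 15.0 and 10.3 CPM, lowest in the library where the other 4 were highest, and varied by 31.3%. Dnajc16 was at 31.3, 38.9 and 45.1 CPM and Dnajc2 at 142, 177 and 204 CPM. The 18S row, highest in replicate 1 and lowest in replicate 3, was high and low in the same libraries as Dnajc15, Hsp90ab1, Hspa5 and Cct5 and in the opposite ones to Hsp90aa1, Hsp90b1, Hspa4 and Hspa9, and its part in these differences was not tested. The log2 difference of replicate 3 from replicate 1 was correlated across 68 chaperone genes with GC content (Pearson r = -0.28) and with log2 exon length (r = 0.35). Across 11281 coding genes these were -0.28 and 0.28, and genes are not independent replicates. After removal of each library's trend with length and GC content, 40 chaperone genes passed, 33 of them among the 42, beside 36.3% of all genes. The 9 that no longer passed were Hsf2, Hspa13, Hspa14, Cct6a, Dnaja2, Dnajb2, Dnajb14, Dnajc9 and Dnajc13, with adjusted p between 0.0553 for Dnajc9 and 0.852 for Dnaja2. Hsp90ab1, Hsp90aa1, Hspa8, Hspa5 and Hspa9 still did.

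**Figure D5:**
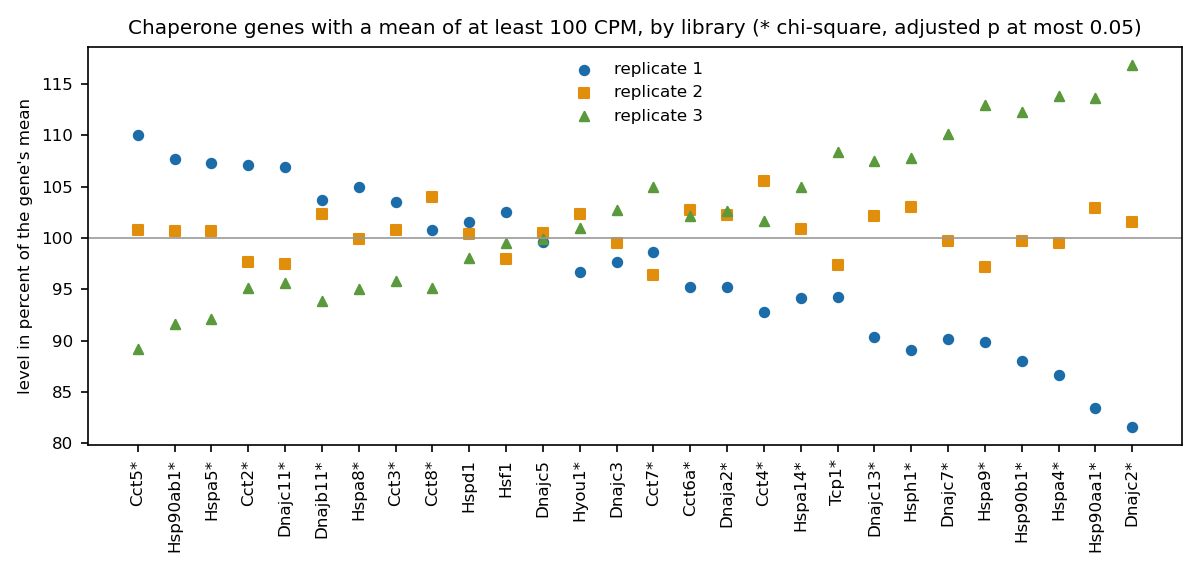
Level in each library of 28 of the 29 chaperone genes averaging 100 CPM or more, in percent of the gene's own mean, ordered by the difference between replicates 3 and 1, with a star where the chi-square test gave an adjusted p of at most 0.05. Hsp90ab1, Hspa5 and Cct5 are highest in replicate 1, Hsp90aa1, Hspa9 and Dnajc2 are highest in replicate 3, and the points of Dnajc5, at 213, 215 and 214 CPM, nearly coincide.

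The partners of these chaperones were measured from 4 lists of genes outside the family. All 19 Hsp90 co-chaperones were at a mean of at least 10 CPM, and 16 of the 19 passed the chi-square test between libraries, or 84.2% beside 58.5% of all genes averaging 10 CPM or more. After removal of the trend with length and GC content, 11 of the 19 passed, or 57.9% beside 36.3% of all genes tested at any level. They were led by Stip1, which links Hsp70 to Hsp90, at 489, 473 and 393 CPM, Fkbp4, a prolyl isomerase, at 383 ± 24.3 CPM, and Cdc37, which brings kinases to Hsp90, at 249 ± 26.7 CPM. Stip1 was highest in replicate 1 and lowest in replicate 3, as was Hsp90ab1. Of the 14 exchange factors and partners of Hsp70, 13 were at 10 CPM or above and 6 passed. This was 42.9%, beside 42.8% of all genes tested and 58.5% of those averaging 10 CPM or more. After removal of the trend, 8 of the 14 passed (57.1%). The highest were Bag6 at 336 ± 18.3, St13 at 276 ± 5.84 and the ubiquitin ligase Stub1 at 126 ± 5.37 CPM.

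Of the 8 partners of the ring chaperonin found in the table, all were at 10 CPM or above and 7 passed (87.5%, beside 58.5% of all genes at that level), led by the prefoldin subunit Pfdn5 at 81.4 ± 11.0 CPM, Txndc9 at 54.8 ± 4.06 CPM and the prefoldin subunit Pfdn2 at 68.5, 47.1 and 38.5 CPM. After removal of the trend with length and GC content, 6 of the 8 ring partners passed (75.0%). Their summed level, at 319 to 363 CPM, lay below that of the ring subunits in each library. Of the 19 other chaperones and regulators, 14 were at 10 CPM or above and 10 of the 15 tested passed. This was 66.7%, beside 42.8% of all genes tested and 58.5% of those averaging 10 CPM or more. After removal of the trend, 11 of the 15 passed (73.3%). The highest were the lectin chaperones of the endoplasmic reticulum Calr at 744 ± 24.0 and Canx at 542 ± 74.0 CPM. The disulfide isomerase P4hb followed at 436 ± 31.1 CPM.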

How the data were processed

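The authors deposited raw counts per gene symbol, with 1 column for each library. Per the submitters' processing notes they used mm10; their aligner, counter, annotation and filters were not given in the sources used here. Genes and lists were chosen with earlier results of these data known.

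Counts were scaled with edgeR 4.0.16 in R 4.3.3 (TMM factors 0.962, 1.01 and 1.03) to CPM. No sample was left out. GENCODE release M21 gave exon lengths and GC content, and 85 of the 86 symbols matched it. Ratios of levels were taken per kilobase within each library. The chi-square test required an expected count of 5 in every library and used scipy 1.17.1. It was tested on simulated counts that varied by counting error alone, which cannot show how it behaves with further variation between samples. The common coefficient of variation beyond counting error, from edgeR, was 0.153 in these libraries. Copies were found with blastn 2.17.0. The processing was varied by DESeq2 1.42.0 size factors, no scaling factor, library sizes without the rows of 18S RNA and Lars2, other limits and lengths, copies added, and each library left out.

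The genes named were all Hsp90, Hsp70, Hsp110 and chaperonin genes, both heat shock factors, the 3 most abundant small heat shock genes, the leading 4 of each J-domain class, the 5 most variable by coefficient of variation among those of at least 10 CPM that passed, the leading 3 of each partner list, and genes with 0 counts. Dnajc3, Dnajc19, Dnajc30, Dnajc14, Hspb2, Dnajb2, Dnajb14, Dnajc6 and Dnajc9 were named after their values, promoters or overlaps were seen, as were the copy rows. For 1 gene of the family and 1 marker, values are not reported here, and sums include them.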

Additional observations from a re-analysis of the deposited data

How the results depend on the processing

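No paired analysis was possible because all 3 libraries belong to 1 group. With DESeq2 size factors or total counts alone, the median level, the sum of each group and the levels of the 23 genes recomputed moved by less than their SD, and 56 of the 86 genes reached 10 CPM in the main scaling and 56 or 57 with any library left out. Without the 18S and Lars2 rows in the library size the median level was 46.1 CPM in place of 44.5, and the sums were 3243 CPM for Hsp70, 773 for the mitochondrial chaperonin, 4009 for the ring chaperonin and 170 for the heat shock factors, since the library sizes are smaller. The chi-square test passed 42 chaperone genes, beside 42.8% of all genes tested, and 6 with at least 1.5-fold also required, beside 13.8%. With 1 library left out it passed between 25 and 42, beside 22.8% to 41.6% of all genes tested. The alternatives that add copies or use principal transcripts were chosen after seeing the data.

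With copies added the median level was 45.7 CPM, and the sums were 8596 CPM for Hsp90, 6441 for Hsp70, 1065 for the mitochondrial chaperonin, 533 for J-domain class A and 495 for class B. The log2 ratios per kilobase with copies added were 2.55 for Hsp90ab1 to Hsp90aa1, 2.13 for Hspa8 to Hspa5, -0.54 for Hspa9 to Hspd1, where the direction reversed, 3.61 for Hspa8 to Hspa4 and -0.025 for Dnaja1 to Dnajb1. For Hspd1 to Hspe1 the ratio was 2.46, but a copy was added to Hspd1 and none to Hspe1. Its rise therefore follows from the counts added to Hspd1 alone.

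With the longest transcript these ratios were 0.33 for Hspa8 to Hspa5, 1.24 for Hspd1 to Hspe1, 0.57 for Hspa9 to Hspd1, 0.26 for Hspa4 to Hsph1 and -0.91 for Dnaja1 to Dnajb1, and the span of the ring subunits was 2.22-fold. With the principal transcript they were 0.73 for Hspa8 to Hspa5, 0.93 for Hspd1 to Hspe1, -0.57 for Hsp90b1 to Hspa5, 0.57 for Hspa9 to Hspd1, 2.16 for Hspa8 to Hspa4, -0.070 for Hspa4 to Hsph1, where the direction reversed, and -0.91 for Dnaja1 to Dnajb1, and the span was 2.14-fold. With no division by length they were 3.23 for Hsp90ab1 to Hsp90aa1, 2.57 for Hspd1 to Hspe1, 0.90 for Hspa9 to Hspd1, 1.21 for Hspa8 to Hspa4, 3.13 for Hsf1 to Hsf2, 0.21 for Hspa4 to Hsph1 and -0.0032 for Dnaja1 to Dnajb1, and the span was 1.82-fold. These shifts follow from the lengths and the added counts themselves. Genes under 0.236 CPM were at the limit of the depth.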
